A study of Mus musculus with 8 samples.

Results

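The immunity-related GTPases described here are 8 genes, Irgm1, Irgm2, Igtp, Tgtp1, Tgtp2, Iigp1, Gm12250 and Ifi47, out of 21051 genes listed. They were taken by gene symbol and had been selected on the difference between the genotypes, that is, for being higher in Colec11-/- cells in these same libraries. Their differences between genotypes are therefore given as a description, and the numbers of them called by the test across all genes are printed but not read as evidence. RNA was measured by RNA-Seq in tumor-associated macrophages (TAMs), which were sorted by FACS as CD45+F4/80+ cells from subcutaneous B16 melanomas of C57BL/6 mice on day 14 after injection. B16 is a pigmented mouse melanoma line. There were 4 libraries from WT mice (TAM-WT) and 4 from Colec11-/- mice (TAM-KO), 1 library per mouse, and the mice were adult males with WT littermates as controls. Colec11, which encodes the secreted lectin collectin-11, is deleted in the whole animal, including the host cells around the tumor, while the injected B16 cells are of their own genotype.

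Immunity-related GTPases are proteins that cells make in response to interferon, above all interferon gamma, and in mice they defend against bacteria and parasites that live inside vacuoles. The effector GTPases gather on the membrane of such a vacuole and break it, while the regulators, known as the Irgm proteins, sit on the cell's own membranes and keep the effectors inactive there. Genes that respond to interferon often carry gamma-activated sites (GAS) or interferon-stimulated response elements (ISRE), short DNA motifs near the gene start, and IRF factors bind the latter.

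Of the 8 genes, 7 lie on chromosome 11 in 2 clusters of the GRCm38.p6 build. The first holds Irgm1 (chr11:48865245-48871420), Tgtp1 (chr11:48985329-48992246), Tgtp2 (chr11:49057196-49064212) and Ifi47 (chr11:49076587-49096987). The second holds Gm12250 (chr11:58183843-58190198), Igtp (chr11:58199556-58207592) and Irgm2 (chr11:58214977-58222783). Tgtp1 and Tgtp2 are near-identical copies. Their longest coding transcripts, of 2823 and 2810 bases, differed at 6 of 2810 aligned bases and shared an exact run of 1040 bases, so the division of reads between them is uncertain.

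RefSeq promoters of the GRCm38.p6 build, from 250 bases before to 50 bases after the listed gene start, were given for 7 of the 8 genes, all but Iigp1. They are shown because the members moved together and their promoters share letters close to the start. The motifs searched on both strands were GAAA, any 2 bases and GAAA again for an ISRE, and TTCNNNGAA for a GAS, and matches are in capitals. The sequences are written 5′ to 3′ in the direction of the gene.
Tgtp1, chr11:48992294-48992353, minus strand: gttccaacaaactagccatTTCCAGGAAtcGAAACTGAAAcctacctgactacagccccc
Tgtp2, chr11:49064253-49064312, minus strand: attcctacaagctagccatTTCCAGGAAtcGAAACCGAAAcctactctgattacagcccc
Irgm2, chr11:58214883-58214942, plus strand: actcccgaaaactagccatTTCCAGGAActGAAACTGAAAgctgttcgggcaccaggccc
Igtp, chr11:58199492-58199551, plus strand: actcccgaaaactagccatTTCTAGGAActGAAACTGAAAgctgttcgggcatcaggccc
Irgm1, chr11:48871415-48871474, minus strand: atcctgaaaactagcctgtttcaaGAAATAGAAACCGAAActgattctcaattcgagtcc
Gm12250, chr11:58183742-58183816, plus strand: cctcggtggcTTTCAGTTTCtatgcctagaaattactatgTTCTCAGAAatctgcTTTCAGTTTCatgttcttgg

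An ISRE match was found in 6 of the 7 promoters, against 3.44% of all 32851 promoters of the same length. A GAS match was found in 5 of the 7, against 8.3% of all promoters. In Tgtp1, Tgtp2, Irgm2 and Igtp the GAS stood directly before the ISRE. Irgm1 held 2 overlapping ISRE matches and Gm12250 held 2 on the opposite strand, on either side of a GAS. A GAS within 12 bases of an ISRE, a distance set after the matches were seen, was found in 5 of the 7 and in 22 of the 32851 promoters (0.067%). The 22 include these 5. The letters printed for Irgm2 and Igtp are nearly the same, as are the matched stretches of Tgtp1 and Tgtp2. Their matches are therefore not independent of each other. The pair was also found in 1 of 5 promoters examined of other genes of the family, that of Gm12185. Gm4951 and F830016B08Rik, on chromosome 18, were left out of that count. The pair was found in 0 of the 5 guanylate-binding protein genes with a promoter listed, each of which held an ISRE. Neither motif was matched in the window of Ifi47. These are matches of letters and not measured binding.

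**Figure D1:**
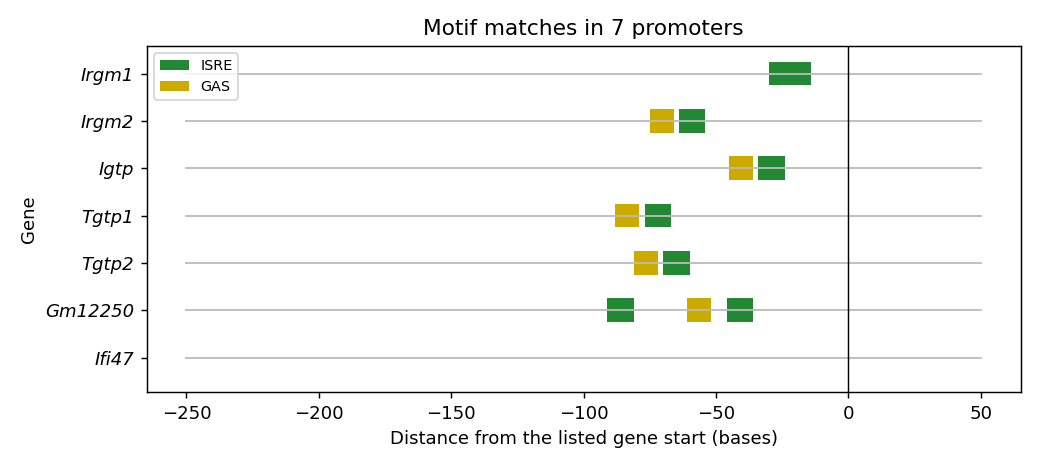
Matches of the ISRE (green) and GAS (yellow) letters in the promoters of 7 immunity-related GTPase genes, by distance in bases from the listed gene start, with the window as a grey line. The matches lie before the start, side by side in 4 genes, and the window of Ifi47 holds none.

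The 3 regulators were all higher in TAM-KO than in TAM-WT. Values are FPKM, the number of reads scaled by the length of the gene and the size of the library. Irgm1, the regulator that localises to Golgi and lysosomal membranes, was at 41.78, 15.78, 18.85 and 33.81 FPKM in TAM-WT replicates 1 to 4 and at 53.52, 93.92, 98.95 and 62.19 in TAM-KO replicates 1 to 4. The groups did not overlap, with the highest TAM-WT library (replicate 1) below the lowest TAM-KO library (also replicate 1) by a ratio of 1.28. The means were 27.6 ± 12.3 FPKM in TAM-WT and 77.1 ± 22.6 FPKM in TAM-KO (SD, n = 4 each), and the log2 fold change fitted with edgeR was 1.54 ± 0.32 (SE).

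Igtp, also called Irgm3, was at 22.22, 5.92, 8.68 and 13.93 FPKM in TAM-WT and at 34.05, 60.28, 65.71 and 36.39 in TAM-KO. Its lowest TAM-KO library was 1.53 times its highest TAM-WT library, and its log2 fold change was 1.99 ± 0.39 (SE). Irgm2 was the least abundant regulator, at 12.26, 4.06, 4.48 and 8.06 FPKM in TAM-WT and 14.92, 29.96, 30.74 and 19.03 in TAM-KO. Its groups were separated by a ratio of 1.22 and its log2 fold change was 1.61 ± 0.35 (SE).

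Among the effectors, Tgtp1 and Tgtp2, whose proteins are known as Irgb6, had the 2 highest fitted fold changes of the 8 genes with all libraries in the fit. Iigp1 was above Tgtp2 when TAM-WT replicate 1 was left out (log2 fold changes of 3.59 and 3.45), and above both with limma on log2(FPKM + 1) and TAM-KO replicate 1 filled in (2.79, against 2.62 for Tgtp1 and 2.67 for Tgtp2). Tgtp1 was at 3.1, 0.09, 0.22 and 0.82 FPKM in TAM-WT and at 5.34, 17.3, 21.94 and 4.39 in TAM-KO. In TAM-WT replicate 2 it rested on an expected count of 3.89 reads, against 944 in TAM-KO replicate 3. Its log2 fold change was 3.42 ± 0.80 (SE), and it was 5.11 ± 0.80 when replicate 1 of both groups was left out. Tgtp2 was at 17.44, 2.11, 2.75 and 7.67 FPKM in TAM-WT and at 26.49, 55.43, 67.65 and 27.91 in TAM-KO, with a log2 fold change of 2.65 ± 0.65 (SE).

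Because reads can move between the copies, both were also summed. The sum was 20.54, 2.2, 2.97 and 8.49 FPKM in TAM-WT and 31.83, 72.73, 89.59 and 32.3 FPKM in TAM-KO, which gives a log2 ratio of the group means of 2.73. The groups of the sum did not overlap, so the difference between genotypes did not depend on how reads were divided. The share of the sum assigned to Tgtp1 was 15.1%, 4.09%, 7.41% and 9.66% in TAM-WT and 16.8%, 23.8%, 24.5% and 13.6% in TAM-KO. These shares overlapped between the groups, with TAM-WT replicate 1 above TAM-KO replicate 4.

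Iigp1, whose product Irga6 is among the best studied effectors, was at 21.54, 1.4, 2.26 and 6.29 FPKM in TAM-WT and at 24.67, 54.78, 67.86 and 28.94 in TAM-KO. TAM-WT replicate 1 was 6.49 times the mean of the other 3 TAM-WT libraries, and the lowest TAM-KO library was above it by a ratio of only 1.15, the narrowest gap of the 8 genes. The log2 fold change was 2.40 ± 0.70 (SE), and 3.79 ± 0.57 without replicate 1 of both groups. Gm12250, known as Irgb10, was at 6.25, 1.73, 2.02 and 5.36 FPKM in TAM-WT and at 7.78, 14.0, 15.34 and 10.42 in TAM-KO, with a log2 fold change of 1.52 ± 0.38 (SE). Ifi47, known as Irgd, was at 32.01, 9.29, 11.24 and 20.53 FPKM in TAM-WT and at 37.85, 64.19, 65.5 and 40.04 in TAM-KO, with a log2 fold change of 1.52 ± 0.38 (SE).

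**Figure D2:**
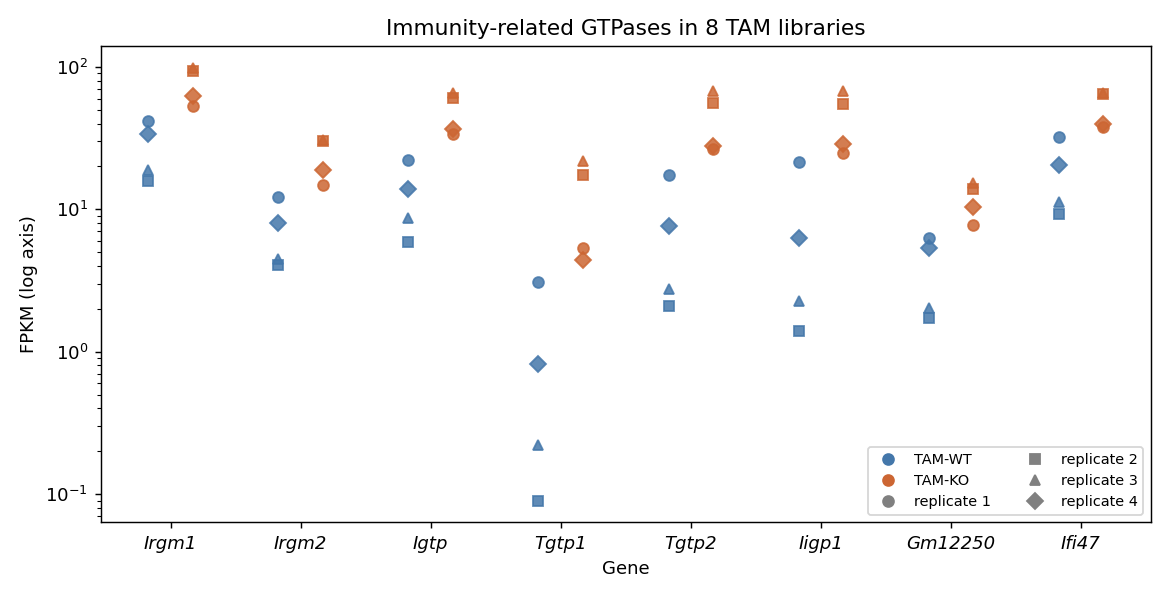
FPKM (log axis) of the 8 immunity-related GTPase genes in each of the 4 TAM-WT (blue) and 4 TAM-KO (orange) libraries. The marker shape gives the replicate number, and the labels do not say whether it pairs mice. TAM-WT replicate 1 is the highest TAM-WT library and TAM-KO replicate 3 the highest TAM-KO library for each gene, and no gene's groups overlap.

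All 8 genes had every TAM-KO library above every TAM-WT library, a separation shown by 8.73% of the 12412 genes tested. With the quasi-likelihood test of edgeR, where a gene is called when its p, adjusted by Benjamini-Hochberg across the whole table, is 0.05 or less, 7 of the 8 were called higher and Iigp1 was not, beside 4.58% of all genes called higher and 5.24% called lower. Since the genes were selected on this difference, nothing is read from these counts. Without TAM-WT replicate 3 or 4, or TAM-KO replicate 2 or 3, edgeR called 0 of the 8. Over all genes those fits called 151, 416, 77 and 77, in that order, against 1218 with every library in. All 8 had an unadjusted edgeR p under 0.05 in each of them. The genes were selected on this difference and the share of all genes at that p is not given, so nothing is read from it. Leaving out TAM-KO replicate 1 gave 4 calls among the 8, and leaving out either of TAM-WT replicates 1 and 2 gave 8. Over all genes these fits called 682, 1160 and 2755, in that order. The table of TAM-KO replicate 1 is incomplete, and the values of Irgm1, Igtp, Tgtp2 and Ifi47 in that library came from the table of the whole series, so their fitted fold changes rest on 3 TAM-KO libraries. With those counts included the log2 fold changes were 1.39 for Irgm1, 1.84 for Igtp, 2.46 for Tgtp2 and 1.39 for Ifi47.

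The order of the genes by FPKM was much alike in the groups. Irgm1 was highest in all 8 libraries, with Ifi47 second by mean in both groups. In TAM-WT, Iigp1, Tgtp2 and Irgm2 followed Igtp at 7.87, 7.49 and 7.21 FPKM and could not be ordered, as their order changed between libraries. In TAM-KO, Tgtp2 and Iigp1 had means of 44.4 and 44.1 FPKM and each was higher in 2 of 4 libraries, while Irgm2 was below both at 23.7 FPKM. Tgtp1 was lowest in TAM-WT at 1.06 ± 1.40 FPKM (SD, n = 4) and was level with Gm12250 in TAM-KO, at 12.2 ± 8.74 against 11.9 ± 3.44 FPKM.

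The 8 genes also varied together between mice of the same genotype. TAM-WT replicate 2 was the lowest library, TAM-WT replicate 3 the next and TAM-WT replicate 1 the highest TAM-WT library for 8 of 8 genes. In TAM-KO, replicate 3 was highest and replicate 2 second for 8 of 8, and replicate 1 was lowest for 7 of 8, Tgtp1 being lowest in replicate 4. The summed FPKM of the 8 genes was 156.6, 40.38, 50.5 and 96.47 in TAM-WT and 204.62, 389.86, 433.69 and 229.31 in TAM-KO. Over deviations of log2(CPM + 1) from each group's mean, which do not use the difference between genotypes, each gene's Pearson correlation with the mean of the other 7 was between 0.958 (Gm12250) and 0.998 (Ifi47) over 8 libraries. These points share libraries, depth and sorted cell mix, and no p is given.

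By the same measure, the 8 genes outside the family most like it, among 8690 genes with a mean of at least 5 FPKM, were Gbp5 (r = 0.992), Ly6a (0.992), Gbp3 (0.989), Gbp7 (0.986), Cfb (0.984), Gbp6 (0.98), Gbp2 (0.979) and A630001G21Rik (0.979), each over 8 libraries. The Gbp genes encode guanylate-binding proteins, a second family of interferon-induced GTPases, Ly6a encodes the surface protein Sca-1, and Cfb encodes complement factor B. The median r over all genes compared was -0.05, and 1.38% were above 0.9. Socs1, an inhibitor of interferon signalling, was at r = 0.88, and the transcription factor gene Irf1 at 0.76.

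Of the other genes of the family, most did not pass the test. Of 8 tested with edgeR, 1 was called higher and 0 lower, beside 4.58% and 5.24% of all genes. The median log2 fold change was 0.44, beside 1.80 over the 8 selected genes and 0 over all genes tested. The called gene, Gm12185 in the first chromosome 11 cluster, was at 0.6, 0.16, 0.15 and 0.28 FPKM in TAM-WT and 0.65, 2.08, 2.01 and 0.55 in TAM-KO, so its groups overlapped. Its log2 fold change was 2.02 ± 0.54 (SE, edgeR adjusted p = 0.0463), and the call was kept in 2 of 8 fits that each left out 1 library. Leaving out any of TAM-WT replicates 2 to 4 or TAM-KO replicates 1 to 3 ended it. Gm4951 had a log2 fold change of 1.62 ± 0.53 (edgeR adjusted p = 0.075) with overlapping groups.

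Gm5431, 9930111J21Rik1 and 9930111J21Rik2, which stand between Irgm1 and Tgtp2 in the first cluster, had log2 fold changes of 0.54, 0.34 and 0.28 that did not pass the test. The 2 Rik genes share an exact run of 1518 transcript bases, so their values are uncertain. F830016B08Rik was at 0.58 on the log2 scale and did not pass. Irgq and Irgc1, whose products are the family's distant members, were at -0.01 ± 0.06 and -0.23 ± 0.35 (SE), and Irgq was between 4.14 and 4.8 FPKM in TAM-WT and between 4.72 and 5.08 in TAM-KO.

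**Figure D3:**
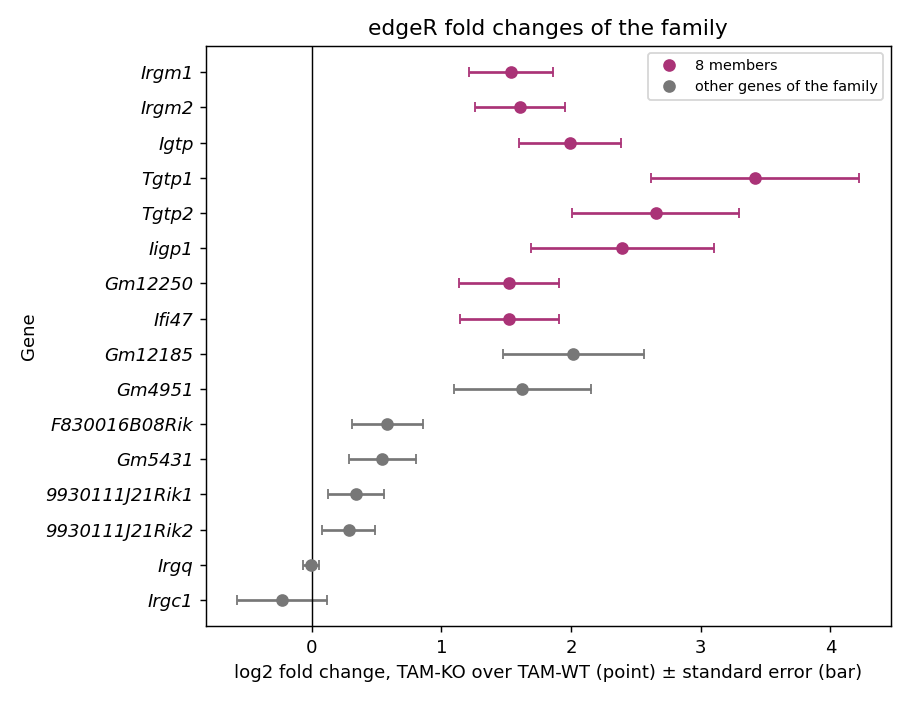
Log2 fold change of TAM-KO over TAM-WT (points) with the standard error derived from the edgeR test (bars) for the 8 selected genes (purple) and 8 other genes of the family (grey). The selected genes lie between 1.52 and 3.42, and the other genes between -0.23 and 2.02.

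The genes that carry interferon signals to the GTPases mostly did not pass the test, and those that did include genes that interferon itself induces. Of 20 signalling genes tested with edgeR, 5 were called higher and 0 lower, beside 4.58% and 5.24% of all genes. The median log2 fold change of the 20 was 0.12. The called genes included Stat2 (0.85 ± 0.22, adjusted p = 0.0442), Irf1 (0.82 ± 0.21, adjusted p = 0.0488), the feedback inhibitor Socs1 (1.45 ± 0.34, adjusted p = 0.0393) and the kinase Tyk2 (0.26 ± 0.07, adjusted p = 0.0426), given as log2 fold change ± SE. Socs1 was at 10.49, 3.2, 6.06 and 5.65 FPKM in TAM-WT and 9.51, 20.42, 22.82 and 13.08 in TAM-KO, so its groups overlapped. The receptor genes Ifngr1 and Ifngr2 had log2 fold changes of -0.06 ± 0.12 and 0.08 ± 0.07, Ifnar2 -0.21 ± 0.12, and the kinases Jak1 and Jak2 -0.16 ± 0.11 and 0.20 ± 0.14, none past the test. The call of Irf1 was kept in 1 of 8 fits that each left out 1 library, the one without TAM-WT replicate 2. When the missing TAM-KO replicate 1 counts were filled in, 2 signalling genes were called. Leaving out TAM-WT replicate 4 or TAM-KO replicate 1 gave 3, and leaving out TAM-KO replicate 4 gave 2.

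Ifng, which encodes interferon gamma and is made mainly by T and NK cells, was at 2.49, 0, 0.12 and 0 FPKM in TAM-WT and at 3.59, 7.77, 6.11 and 2.15 in TAM-KO. TAM-WT replicate 1 was above TAM-KO replicate 4, so the groups overlapped, and the log2 fold change of 2.94 ± 1.04 (SE) did not pass the test (edgeR adjusted p = 0.102). Without TAM-WT replicate 1 it was 6.66 ± 0.88 and passed (edgeR adjusted p = 0.012), and limma on log2(FPKM + 1) also called it (2.05 ± 0.50, adjusted p = 0.0406). The TAM-WT library with the highest level of all 8 GTPases was also the one with the most Ifng. TAM-WT replicate 4, the next highest TAM-WT library in summed GTPase FPKM (96.47), had Ifng at 0.

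Markers of T and NK cells were mostly higher in TAM-KO, as the GTPases were, and the order of the libraries was the same only in part. TAM-WT replicate 1 was the highest TAM-WT library for the GTPases and for both marker sums. TAM-WT replicate 4 was above replicate 3 in summed GTPase FPKM (96.47 against 50.5) and below it in T cell markers (3.63 against 4.02). That T cell sum includes Cd28, at 2.56 FPKM in TAM-WT replicate 3 and 1.73 in replicate 4. Summed over the 8 T cell markers with a value in all libraries, of 9 listed, FPKM was 17.2, 2.98, 4.02 and 3.63 in TAM-WT and 32.6, 54.4, 45.0 and 20.0 in TAM-KO. Of the 9, 7 had a higher mean in TAM-KO, 6 of them with no overlap, while Cd4 and Cd28 had a lower mean, with Cd28 at 1.52 to 2.56 FPKM in TAM-WT and 0.88 to 1.53 in TAM-KO. The 8 of 9 NK cell markers with a value in all libraries summed to 19.9, 0.9, 2.42 and 3.85 FPKM in TAM-WT. In TAM-KO they summed to 30.9, 73.3, 60.6 and 21.3. The NK sums ordered the TAM-WT libraries as the GTPases did. In TAM-KO, both marker sums had replicate 2 above replicate 3 and replicate 1 above replicate 4, unlike the GTPases. In TAM-KO most of the NK sum was Nkg7 and Gzmb. Klrb1c had a lower mean in TAM-KO, and Ncr1, Gzma, Prf1 and Eomes were at 0 in at least 1 library, Ncr1 also in 2 of the 4 TAM-KO libraries. Cd3d and Cd8b1 were at 0 in at least 1 TAM-WT library, while Cd3e was at 2.33 FPKM in TAM-WT replicate 1 and between 0.05 and 0.1 in the other 3. Their part in the GTPase levels was not tested. In bulk RNA, fewer cells of a type and less RNA per cell cannot be told apart.

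The monocyte markers with a value in all libraries, 3 of 4, summed to 57.9 to 155 FPKM in TAM-WT and 240 to 383 in TAM-KO. The other, Ccr2, was at 28.86 to 59.05 FPKM in TAM-WT and 45.08 to 56.42 in 3 TAM-KO libraries, so its groups overlapped. The 8 macrophage markers summed to 11263 to 13550 FPKM in TAM-WT and 8153 to 10878 in the 3 TAM-KO libraries that hold them all, and none was at 0. Without Lyz2, the other 7 summed to 3998 to 4847 FPKM in TAM-WT and 4034 to 4677 in TAM-KO. Among the 8 macrophage markers, 3 had a higher mean in TAM-KO and 5 a lower one, namely Adgre1, Csf1r, Cd68, Mertk and Lyz2. Fcgr1 was higher in every TAM-KO library than in any TAM-WT library. Adgre1, which encodes F4/80, was at 186 to 239 FPKM in TAM-WT and 182 to 200 in those 3 TAM-KO libraries. Neutrophil markers (5 of 5) were at 21.2 to 32.1 FPKM in TAM-WT, at 193 in TAM-KO replicate 1 and at 48.5 to 54.9 in the other 3, with Ly6g at or near 0 in every library. Melanoma cell markers (5 of 5) summed to 1873 to 4235 FPKM in TAM-WT and 3643 to 4878 in TAM-KO, and TAM-WT replicate 2, lowest for the GTPases, was the TAM-WT library with the most. B cell, dendritic cell, fibroblast and endothelial cell markers summed to at most 11.5 FPKM in any of the 7 complete libraries. The part of these cells in the GTPase levels was not tested. Colec11 had 0 to 4 counts in TAM-WT libraries and 1 in each TAM-KO library, too few to check the genotype.

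**Figure D4:**
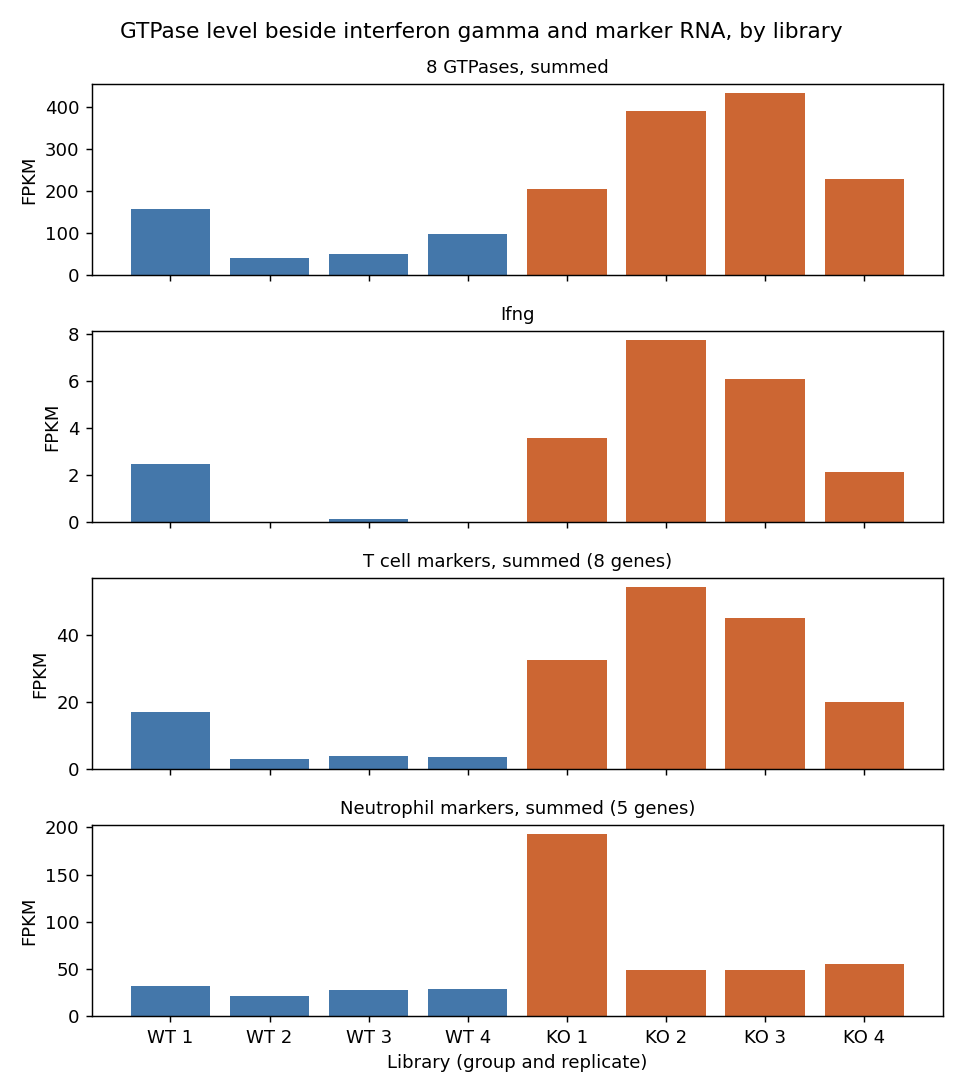
FPKM in each of the 8 libraries of the 8 GTPase genes summed, Ifng, 8 T cell markers summed and 5 neutrophil markers summed, as bars from 0 (TAM-WT blue, TAM-KO orange). TAM-WT replicate 1, at 156.6 FPKM for the GTPases, also has the highest Ifng (2.49) and T cell marker sum (17.2) of the TAM-WT libraries, and neutrophil markers reach 193 in TAM-KO replicate 1.

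The guanylate-binding proteins, which act at the same vacuoles, were higher in TAM-KO in part. All 10 tested had a positive log2 fold change, with a median of 1.85. With edgeR, 4 were called higher and 0 lower, beside 4.58% and 5.24% of all genes. The 4 called with edgeR were Gbp10 (4.10 ± 0.82, adjusted p = 0.0236), Gbp3 (1.44 ± 0.37, adjusted p = 0.0429), Gbp7 (1.32 ± 0.36, adjusted p = 0.0469) and Gbp9 (1.07 ± 0.29, adjusted p = 0.0488). Gbp2, the most abundant, was at 44.13, 5.23, 11.49 and 21.22 FPKM in TAM-WT and 52.38, 110.47, 117.92 and 58.26 in TAM-KO, and Gbp6 had a log2 fold change of 2.32 ± 0.64, neither past the test. The count was 10 of 10 when TAM-WT replicate 1 was left out, and 1 when TAM-KO replicate 1 was. Leaving out TAM-WT replicate 2 gave 7.

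Other targets of interferon gamma included called genes. The median log2 fold change of the 18 tested was 1.02, and all 18 were positive, beside 6244 of all 12412 genes tested. Beside 4.58% of all genes called higher and 5.24% called lower, edgeR called 9 of the 18 higher and 0 lower. They included Ly6a (2.85 ± 0.74, adjusted p = 0.0482), the Fc receptor gene Fcgr4 (1.25 ± 0.29, adjusted p = 0.0326), the immunoproteasome subunits Psmb9 (1.11 ± 0.23, adjusted p = 0.0285) and Psmb10 (0.64 ± 0.15, adjusted p = 0.033), the chemokine Cxcl10 (0.92 ± 0.20, adjusted p = 0.0324) and Slamf8 (0.92 ± 0.24, adjusted p = 0.042). Psmb8, another abundant immunoproteasome subunit, had a log2 fold change of 0.62 ± 0.17 that did not pass. The count was 14 without TAM-WT replicate 1 and 2 without TAM-WT replicate 4.

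The 18 type I interferon targets tested had a median log2 fold change of 0.82. Beside 4.58% of all genes called higher and 5.24% called lower, edgeR called 4 of the 18 higher and 0 lower. These were Ifi44 (2.10 ± 0.52, adjusted p = 0.0384), the nucleic acid sensor Zbp1 (1.42 ± 0.34, adjusted p = 0.0353), Oas3 (1.21 ± 0.33, adjusted p = 0.0457) and Xaf1 (0.87 ± 0.23, adjusted p = 0.0459). The abundant Irf7, Isg15 and Rtp4 had log2 fold changes of 1.25 ± 0.36, 1.01 ± 0.37 and 0.71 ± 0.23, none past the test. TAM-WT replicate 4 was higher than TAM-WT replicate 1 for 16 of the 18 genes, Ifi44 and Zbp1 being the exceptions, and for 0 of the 8 immunity-related GTPases. It was also higher for 0 of 10 guanylate-binding proteins and for 2 of 19 interferon gamma targets. The count of type I targets called was 9 when TAM-WT replicate 2 was left out and 2 when TAM-WT replicate 1 was. Leaving out TAM-KO replicate 1 gave 1, and leaving out TAM-KO replicate 4 gave 0, where 11 had an unadjusted p under 0.05. The share of all genes at that unadjusted p is not given here, so nothing is read from the 11.

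Few genes for the proteins that place the GTPases on vacuoles, or act after them, were called. Of 17 tested with edgeR, 1 was called higher and 2 lower, beside 4.58% and 5.24% of all genes, with a median log2 fold change of -0.20. Trim21, a ubiquitin ligase recruited to such vacuoles, was called higher (0.54 ± 0.14, adjusted p = 0.0403), and the conjugation genes Atg5 (-0.29 ± 0.07, adjusted p = 0.0356) and Atg12 (-0.47 ± 0.13, adjusted p = 0.0462) were called lower. The abundant Gabarap, Sqstm1 and Gabarapl1 had log2 fold changes of -0.35 ± 0.10, -0.23 ± 0.15 and -0.21 ± 0.11, none past the test. The count was 1 with limma on log2(FPKM + 1). It was 7 without TAM-WT replicate 2, and it was 1 when TAM-WT replicate 4, or either of TAM-KO replicates 1 and 4, was left out.

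For each of these 5 lists edgeR called 0 genes when TAM-WT replicate 3, or either of TAM-KO replicates 2 and 3, was left out, and it called 0 guanylate-binding proteins when TAM-WT replicate 4 was. In these fits 9 of 10 guanylate-binding proteins, 14 of 18 interferon gamma targets, 10 to 12 of 18 type I targets, 6 to 8 of 20 signalling genes and 5 to 6 of 17 loading partners had an unadjusted p under 0.05. The share of all genes at that unadjusted p is not given here, so nothing is read from these numbers.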

How the data were processed

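RNA-Seq libraries of sorted TAMs from 4 WT and 4 Colec11-/- mice were grouped by the deposited labels. According to the submitters' processing notes and the study's methods, reads were aligned with HISAT2 2.0.4 and Bowtie2 2.2.5 to GRCm38.p6 and quantified with RSEM 1.2.12. The authors deposited expected counts, which RSEM estimates per gene without normalization, FPKM values, which are relative to gene length and mapped reads, and TPM values, which were not used. The authors' deposited table of the whole series also holds log2 ratios and p-values of their own comparison, which were not used. Reads on genes numbered 16225362 to 17280267 in 7 libraries.

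The table of TAM-KO replicate 1 lacks 5311 genes. FPKM of that library was taken from the table of the whole series for 1188 genes, and this selection of genes favors those that differ. Genes with a value in 8 libraries were fitted on 8 and the others on 7. The test on rounded expected counts was edgeR 4.0.16 (filterByExpr, TMM, glmQLFit and glmQLFTest, under R 4.3.3), with Benjamini-Hochberg adjustment over 12412 genes. P-values measure the spread between these mice. The SE given with an edgeR log2 fold change was derived from the test. It is the absolute log2 fold change divided by the square root of the F statistic. On simulated counts for this comparison, 93% of 100 genes changed 2-fold and 98% of 100 changed 4-fold were called. So were 15 of 12223 unchanged genes. Whether these shares hold for the measured libraries was not tested. There Iigp1, with a log2 fold change of 2.40, was not called, while 7 of the 8 members were. 

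The members and gene lists were chosen with earlier results of these data known. Genes named are the 8 members, other genes of the family, Colec11, 8 genes of the interferon gamma pathway, from each list its 3 most abundant and up to 6 called genes, and the 8 genes most alike between mice. The values of 1 signalling gene are not reported here, though counts include it. Markers named with values were chosen after their values were seen. Likeness used TMM-scaled CPM with a pseudocount of 1. Promoters came from RefSeq and transcripts from GENCODE, compared with Biopython 1.88. Alternatives were DESeq2 1.42.0, its size factors in edgeR, limma 3.58.1 on log2(FPKM + 1) and log2(FPKM + 0.1), other filters, a stricter threshold, a replicate block and each library left out. Added after seeing the data were 2 refits, one that filled in the missing TAM-KO replicate 1 counts and one without replicate 1 of both groups, because T and NK cell RNA in TAM-WT replicate 1 stood above the other TAM-WT libraries and the TAM-KO replicate 1 table is incomplete.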

Additional observations from a re-analysis of the deposited data

Results flagged for a closer look

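Among 201 groups of 4 libraries examined for the named genes and the cell type markers, 14 held a library far from the other 3, where chance flags about 1 in 20 groups. Of these, 11 concerned TAM-WT replicate 1. Ifng was at 2.49 FPKM there, a gap of 0.952 of the group's range, while the other TAM-WT libraries were at 0.12 or below. In the same library the T cell markers Cd3d (0.94 FPKM), Cd3e (2.33), Cd3g (4.58), Cd8a (2.16) and Lck (1.96) and the NK cell markers Gzmb (6.55), Nkg7 (5.82), Prf1 (2.49) and Ncr1 (0.1) stood above the other TAM-WT libraries. Ly6g was at 0.09 FPKM there and at 0 in the other TAM-WT libraries. In TAM-KO replicate 1, the neutrophil markers S100a8 (73.46 FPKM) and S100a9 (80.03) were above the other TAM-KO libraries, and Oas3 (13.11 FPKM) was below them. None of the 8 immunity-related GTPases met this criterion in either group.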

How the results depend on the processing

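The 8 GTPases kept a positive log2 fold change in each of 149 refitted values. With every TAM-KO library above every TAM-WT library for each gene, the sign could hardly change, so nothing is read from that. Of the 149, 147 moved by less than the SD between replicates. The 2 that moved more were Tgtp1 (5.11) and Iigp1 (3.79) without replicate 1 of both groups. Genes called numbered 1218, against 2253 with DESeq2's Wald test and 36 at an adjusted p of at most 0.01. Without replicate 1 of both groups they numbered 787, and with each library left out 77 to 2755. They numbered 1109 with TAM-KO replicate 1 filled, 1076 with a minimum of 10 counts and 1226 with no filter. With limma they numbered 1324 on log2(FPKM + 1), 1230 on the same scale with filling, and 1283 on log2(FPKM + 0.1). Members called ranged from 0 to 8 with each library left out, signalling genes 0 to 7, guanylate-binding proteins 0 to 10, loading partners 0 to 7, interferon gamma targets 0 to 14 and type I targets 0 to 9. Without replicate 1 of both groups the counts were 3 signalling genes, 10 guanylate-binding proteins, 1 loading partner, 14 interferon gamma targets and 2 type I targets. With TAM-KO replicate 1 filled they were 2 signalling genes, 1 guanylate-binding protein and 2 type I targets. DESeq2 called 7 guanylate-binding proteins, 5 loading partners and 11 type I targets. A minimum of 10 counts left 2 guanylate-binding proteins, and no filter gave 8 type I targets. Limma on log2(FPKM + 1), with or without filling, called 8 guanylate-binding proteins, 1 loading partner and 10 type I targets, and without filling 14 interferon gamma targets. On log2(FPKM + 0.1) it called 7, 1, 10 and 14 of these. Limma on log2(FPKM + 1) moved the median of all genes to 0.089 and the share of calls that were higher from 46.6% to 69.2%. Of the 8 genes most alike, 5 were shared with log2(FPKM + 1). The causes of these differences were not tested.

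The labels do not say whether replicate numbers pair the mice. Deviations from the group means correlated between same-numbered libraries at -0.33, 0.02, -0.23 and 0.26, which is too little to decide it. With a replicate block, 4 members, 1 loading partner and 2 type I targets were called, among 1080 genes called in all. Tgtp1 in TAM-WT rests on few reads, which limits the precision of its fold change.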
